A study of Homo sapiens with 2 samples.

Results

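Genes of small nuclear and nucleolar RNAs and their host genes were taken from the array by name: every gene probe called SNORD, SNORA, SCARNA, RNU, SNHG, RN7S or RMRP at the start of its name, or GAS5, RPPH1 or TERC in full. This gave 87 probes for 83 genes, of 27267 genes with a probe. They comprised 71 small RNAs and 12 host genes, which are described apart. Total RNA had been isolated from cells of RMG1, an established clear cell ovarian cancer line, sorted by the ALDEFLUOR assay into cells with aldehyde dehydrogenase activity (ALDH+, the fraction the study calls stem-like) and cells without it (ALDH-). The labels give no treatment, and both populations were grown in DMEM/F12 with 10% fetal bovine serum. The methods assign this RNA to AMOC2, a serous line, while the sample labels and the results assign it to RMG1, the name used here. Each population gave 1 RNA sample, and both samples were hybridized together on each of 2 arrays of 1 slide. On the first array ALDH+ cells carried Cy5 and ALDH- cells Cy3, and on the second the dyes were exchanged.

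Small RNAs of these classes work inside ribonucleoprotein particles. Box C/D and box H/ACA small nucleolar RNAs (snoRNAs) guide methylation and pseudouridylation of ribosomal RNA, small Cajal body RNAs (scaRNAs) guide the same reactions on spliceosomal RNAs, and the remaining members are the RNA parts of the spliceosome, of the signal recognition particle, of 7SK, of RNase P, of RNase MRP and of telomerase. Most human snoRNAs and scaRNAs are cut out of introns of a host gene, whose spliced RNA is either an mRNA or, for GAS5 and the SNHG genes, a long noncoding RNA that is often degraded in the cytoplasm by nonsense-mediated decay. Labeling began from an oligo dT primer, and most mature small RNAs carry no poly(A) tail. A probe of 60 bases also cannot tell a mature small RNA from a longer transcript that contains the same bases.

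Some of the probes on which the results turn are shown with their position in hg19, as the array files give it, and all are read 5′ to 3′ on the strand named. Capitals mark TGATGA, the core of the C box of box C/D RNAs, where a probe holds it.
SCARNA9, chr11:93454973-93455032, plus strand: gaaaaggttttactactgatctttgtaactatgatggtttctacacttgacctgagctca
SCARNA17, chr18:47340748-47340807, plus strand: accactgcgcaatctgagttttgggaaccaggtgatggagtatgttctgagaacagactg
SCARNA12, chr12:7076624-7076683, minus strand: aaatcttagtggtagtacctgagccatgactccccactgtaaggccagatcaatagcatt
SCARNA13, chr14:95999692-95999751, minus strand: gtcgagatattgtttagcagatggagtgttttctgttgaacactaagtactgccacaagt
SNORD3B-1, brighter probe, chr17:18965252-18965311, plus strand: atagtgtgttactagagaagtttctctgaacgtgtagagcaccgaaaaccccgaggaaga
SNORD3B-1, dimmer probe, chr17:18965382-18965441, plus strand: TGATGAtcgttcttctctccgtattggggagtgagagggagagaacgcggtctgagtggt
RN7SK, chr6:52860659-52860718, plus strand: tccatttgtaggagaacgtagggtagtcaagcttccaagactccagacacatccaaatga

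TGATGA was searched on the strand of the probe alone. It occurred in 1 of 9 box C/D probes, in 1 of 15 scaRNA probes (SCARNA16), in 0 of 39 box H/ACA probes and in 2.93% of all 34127 gene probes. CTGA, the D box, whose last bases can coincide with the first of TGATGA, occurred in 5 of 9, 8 of 15 and 7 of 39 probes of these classes and in 28.5% of all gene probes. Probes of related members were aligned without gaps over a limited range of offsets. Those of SNORA73A and RNU105A shared 18 of 58 aligned bases, those of SCARNA9 and SCARNA9L 21 of 55, and those of SNORA74A and SNORA74B 28 of 60. The closest by this measure were a probe of RNU105A and that of RNU105B, with 32 of 42. Shared ends outside that range were missed, as where a probe of RNU105A ends with the bases that begin the SNORA73A probe. Low counts can thus come from probes of different regions, and whether these probes tell related members apart was not tested. U3, 7SL and U1 have near-identical gene copies, so the values given for SNORD3B-1, RN7SL1 and RNU1-5 cannot be assigned to 1 copy.

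All values below are log2 ratios of ALDH+ to ALDH- cells after loess normalization within each array, so that a negative value means less signal in ALDH+ cells. Because the arrays carried the same RNA extracts, they were counted as 1 replicate, no test was made, and each SD is the technical spread of 2 arrays. Neither fewer cells with an RNA nor less of it per cell can be told apart in bulk RNA. Of 34127 gene probes, 16683 exceeded background clearly on both arrays in at least one population, for 13718 genes, which are called measured. Pearson's r between the arrays was 0.685 over these genes. Median signals of negative control spots were 135 in Cy3 and 45.1 in Cy5 on the first array, and 127 and 43.1 on the second. KRT8, KRT18 and EPCAM, epithelial markers, were measured with ratios from 0.01 to 0.06. Of the leukocyte genes, CD3E was not measured and PTPRC was, at 0.04. ALDH1A1 was not measured, whereas ALDH1A2 and ALDH1A3 had ratios of 0.20 and 0.61.

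Small RNAs had lower signals in ALDH+ cells more often than the other way round, and the lowest ratios were those of 2 scaRNAs, the U3 snoRNA and the 7SL RNA. Of 71 small RNAs, 28 were measured. Their median ratio was -0.26, against a median of 0.00 over all genes measured, and their medians were -0.33 on the first array and -0.34 on the second. 20 of the 28 were lower in ALDH+ cells on both arrays (71.4%), which 36.1% of all genes measured were, and 3 were higher on both, against 33.7%. 4 were lower by more than 2-fold on the mean of the arrays (14.3%), against 0.707% of all genes, and none was higher by that much, against 0.211%. At 1.5-fold 9 were lower, which 4.59% of all genes were. Across the 28 small RNAs Pearson's r between the arrays was 0.829, a description over genes that share their RNA extracts. 3 of the 28 (SCARNA16, SNORD116-19 and SNORA28) cleared background on both arrays for ALDH- cells but on 1 array for ALDH+ cells, so that they entered through the brighter population. Without them the median was -0.24 and 4 small RNAs remained past 2-fold. All 3 are in the count lower on both arrays, and SCARNA16 and SNORD116-19 are in the count at 1.5-fold. Those counts thus hold members let in by ALDH- cells.

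**Figure D1:**
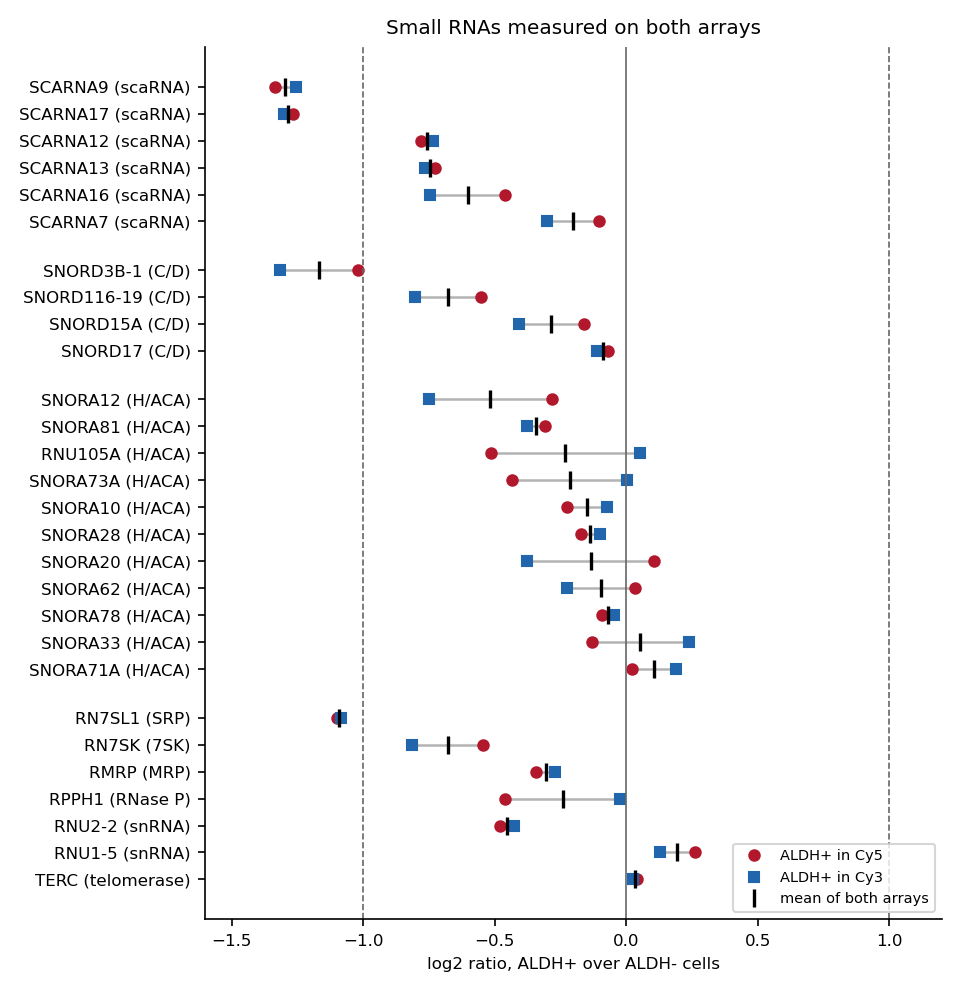
Log2 ratio of ALDH+ to ALDH- cells (x axis) for each of the 28 measured small RNAs, grouped by class, with the array on which ALDH+ cells carried Cy5 as circles, the dye-exchanged array as squares and their mean as a bar. Dashed lines mark 2-fold. All 6 scaRNAs and all 4 box C/D snoRNAs lie left of 0 on both arrays, while H/ACA snoRNAs lie nearer 0 and several cross it.

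**Figure D2:**
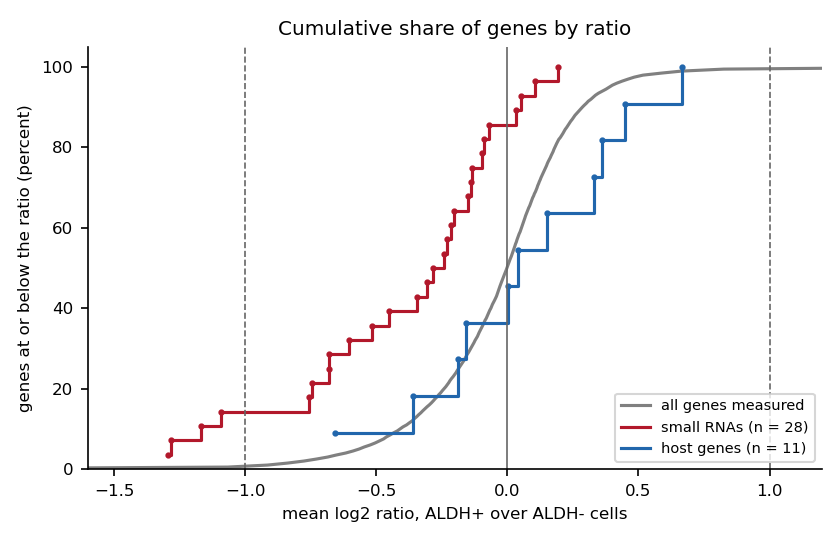
Cumulative percent of genes (y axis) at or below each mean log2 ratio (x axis) for 28 small RNAs, 11 host genes and all 13718 genes measured; dashed lines mark 2-fold. The small RNA curve lies left of the curve of all genes, with its median at -0.26, and the host gene curve spans both sides of 0 with its median at 0.04.

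The scaRNAs were the class with the lowest values. All 6 that were measured, of 15, had ratios under 0 on both arrays, with a median of -0.75, and 5 of them passed 1.5-fold. SCARNA16, which entered through ALDH- cells, is among the 5. SCARNA9, a scaRNA that lies within CEP295 and guides methylation of U2, had spot signals before normalization of 220 in ALDH+ and 433 in ALDH- cells on the first array, and of 226 and 604 on the second. Its ratios were -1.34 and -1.26, a mean of -1.30 ± 0.06, or 2.46-fold lower in ALDH+ cells. This was the 22nd lowest ratio of 13718 genes. SCARNA17, which lies within SNHG22, had signals of 302 and 514 on the first array and of 251 and 754 on the second. Both arrays again gave nearly the same ratio, -1.27 and -1.30, a mean of -1.28 ± 0.02, or 2.44-fold lower. For both scaRNAs, ALDH- cells were thus the brighter population under either dye.

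SCARNA12 had ratios of -0.78 and -0.74, and SCARNA13 of -0.73 and -0.76, so that each was about 1.7-fold lower in ALDH+ cells with little spread between the arrays. SCARNA16 had ratios of -0.46 and -0.75. SCARNA7, at -0.10 and -0.30, was the scaRNA nearest to 0. The other 9 (SCARNA1, SCARNA2, SCARNA4, SCARNA5, SCARNA6, SCARNA10, SCARNA22, SCARNA23 and SCARNA9L) were not measured.

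Of 8 box C/D snoRNAs, 4 were measured, all with ratios under 0 on both arrays. SNORD3B-1 is a copy of U3, which takes part in the cleavage of the ribosomal RNA precursor and guides no methylation. Its brighter probe had signals of 10340 in ALDH+ and 8132 in ALDH- cells on the first array and of 4000 and 17046 on the second. After normalization the ratios were -1.02 and -1.31, a mean of -1.17 ± 0.21, or 2.25-fold lower in ALDH+ cells. The dimmer probe, which lies 70 bases downstream of the brighter and holds the C box core, had ratios of -0.62 and -0.71. Both U3 probes were thus lower in ALDH+ cells on both arrays, by different amounts, and the mean of the probes, -0.92, lies short of 2-fold.

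SNORD116-19, of the imprinted Prader-Willi cluster, had ratios of -0.55 and -0.80 at signals between 129 and 229. SNORD15A, whose host is RPS3, had ratios of -0.16 and -0.41. SNORD17 was close to 0, at -0.07 and -0.11. SNORD8, SNORD9, SNORD12B and SNORD22 were not measured.

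Box H/ACA snoRNAs stood nearer to all genes than the scaRNAs did. Of 38 such RNAs 11 were measured, with a median of -0.14, and 5 of them were lower in ALDH+ cells on both arrays and 1 higher. None passed 1.5-fold. SNORA12, the lowest, had ratios of -0.28 and -0.75, and SNORA81 had ratios of -0.31 and -0.38. The sister RNAs SNORA73A and RNU105A (SNORA73B in RefSeq), which help to process the ribosomal RNA precursor, had ratios under 0 with ALDH+ cells in Cy5 and near 0 with the dyes exchanged: SNORA73A had ratios of -0.43 and 0.00, and RNU105A of -0.51 and 0.05, with -0.47 and -0.04 at its second probe. The spread between the arrays was thus larger than the mean ratio for these. SNORA20, SNORA33 and SNORA62 also had opposite signs on the arrays, with means of -0.14, 0.05 and -0.10. SNORA10, SNORA28, SNORA78 and SNORA71A had means of -0.15, -0.14, -0.07 and 0.10. The 27 that were not measured were RNU105B, RNU105C, SNORA2A, SNORA2B, SNORA16B, SNORA22, SNORA23, SNORA24, SNORA26, SNORA36B, SNORA37, SNORA46, SNORA50, SNORA53, SNORA55, SNORA58, SNORA59B, SNORA60, SNORA65, SNORA70B, SNORA71C, SNORA74A, SNORA74B, SNORA75, SNORA76, SNORA77 and SNORA80.

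RN7SL1, RN7SK, RMRP and RPPH1, which RNA polymerase III makes, were lower in ALDH+ cells on both arrays, with mean ratios from -1.09 to -0.24. All measured scaRNAs and box C/D snoRNAs were also lower on both, as were 36.1% of all genes measured, so the direction is not particular to these RNAs. RN7SL1 is the 7SL RNA, the scaffold of the signal recognition particle that brings ribosomes to the endoplasmic reticulum. Its probe had signals of 81043 in ALDH+ and 50794 in ALDH- cells on the first array and of 30844 and 114610 on the second. The normalized ratios were -1.10 and -1.08, a mean of -1.09 ± 0.01, or 2.13-fold lower. With the arrays centred on their medians in place of loess, the ratio of RN7SL1 was -0.60 and that of SNORD3B-1 was -0.87, and neither passed 2-fold. RN7SK, the 7SK RNA that holds the elongation kinase P-TEFb in an inactive particle, had signals of 17442 and 9393 on the first array and of 6867 and 20894 on the second. Its ratios were -0.54 and -0.81, a mean of -0.68 ± 0.19. With median centring the ratio of RN7SK was -0.35, short of 1.5-fold. RMRP, the RNA of RNase MRP, which cuts the ribosomal RNA precursor, had ratios of -0.34 and -0.27. RPPH1, the RNA of RNase P, which trims the 5′ end of transfer RNA precursors, had ratios of -0.46 and -0.02 and a second probe that was not measured.

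The spliceosomal and telomerase RNAs had no common direction. RNU2-2, a U2 RNA, was lower in ALDH+ cells, at -0.48 and -0.43. RNU1-5, a variant U1 RNA that RefSeq names RNVU1-18, was the highest of the small RNAs, at 0.26 and 0.13. TERC, the template RNA of telomerase, was at 0.04 and 0.02, a mean of 0.03 ± 0.01. Of the minor spliceosome, RNU11, RNU12 and RNU4ATAC were not measured.

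The probes of the small RNAs were not all of 1 kind. Those of 36 small RNAs were designed to a RefSeq RNA, and 22 of these RNAs were measured, with a median of -0.32, 17 lower on both arrays and all 4 that passed 2-fold. Another 36 had a probe designed to a cDNA or expressed sequence tag clone, RPPH1 having one of each kind. Of these clone probes 6 were measured, those of SNORA10, SNORA12, SNORA20, SNORA33, SNORA71A and SNORA78, with a median of -0.10 and 3 lower on both arrays. Whether each clone probe lies inside the small RNA it is named for was not tested, so these 6 values, of the 11 for box H/ACA snoRNAs, may be those of another transcript. Clone probes did not always lie on the strand of the containing gene. The strands of their probes were compared without a check of chromosome or position. Among 28 pairs of a RefSeq probe and a gene that contains the small RNA, strands were opposite in 2. Among 25 pairs with a clone probe they were opposite in 11. SNORA33 was one of these, its probe being on the minus strand while that of its host RPS12 is on the plus strand.

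The SNORA78 probe showed this directly. Over 56 bases, in capitals, it is the reverse complement of the probe of SNHG9, the host gene of SNORA78.
SNHG9, chr16:2015445-2015504, plus strand: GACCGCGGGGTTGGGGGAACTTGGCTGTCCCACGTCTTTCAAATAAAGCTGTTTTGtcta
SNORA78, chr16:2015441-2015500, minus strand: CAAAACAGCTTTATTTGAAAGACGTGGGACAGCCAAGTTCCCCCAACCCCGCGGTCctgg
The probe called SNORA78 therefore reads the strand opposite to SNHG9, and not a small RNA cut out of that host's transcript. Its signals were 102 in ALDH+ and 179 in ALDH- cells on the first array and 166 and 101 on the second, so that the Cy3 population was the brighter on both. The ratios of the SNORA78 probe were -0.09 and -0.05, and those of SNHG9 -0.23 and -0.08. A small RNA cut out of an intron lies on the strand of its host. The values given for SNORA78 and SNORA33 are therefore not read as those of the snoRNAs. Both stay in all counts of small RNAs and of pairs.

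Many small RNAs were dim. In 10 of the 28, the Cy3 signal averaged over the arrays was less than 2 times the median of the negative control spots of that dye, and their ratios had a median of -0.17, with 7 lower on both arrays and none past 2-fold. The other 18 had a median of -0.30, with 13 lower on both arrays and all 4 that passed 2-fold. SCARNA9 stood at 2.49 and SCARNA17 at 2.89 times the control spots, whereas RN7SL1 stood at 309 times them. These averages join ALDH- cells on the first array with ALDH+ cells on the second. On the second array, where ALDH+ cells carried Cy3, SCARNA9, SCARNA17 and SCARNA12 stood at 1.78, 1.97 and 1.94 times the control spots, under the cut of 2. On the first array, where ALDH+ cells carried Cy5, their signals were 220, 302 and 294, against a control median of 45.1. Of the 45 member probes that were not measured, 29 were well above background on no array in either population. No spot of a member was saturated.

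**Figure D3:**
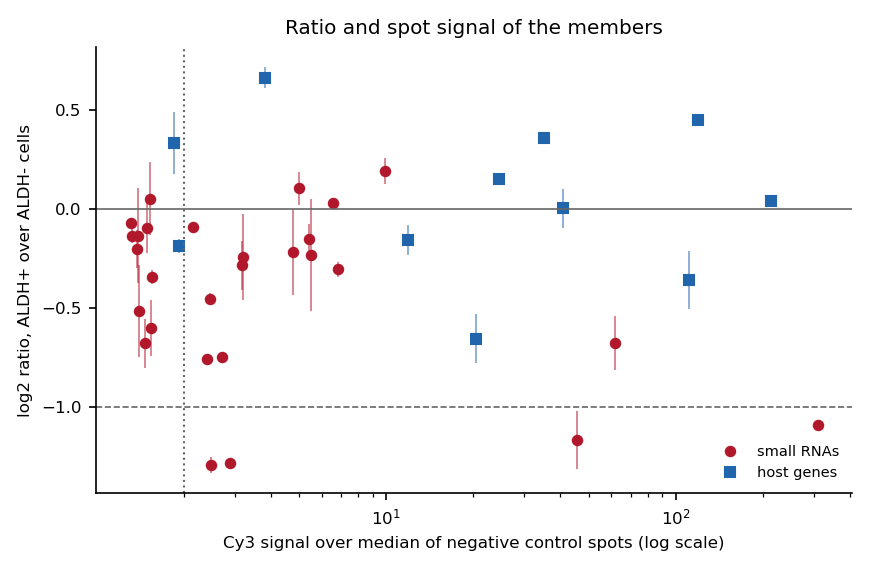
Mean log2 ratio of ALDH+ to ALDH- cells (y axis) against the Cy3 signal of the same probe, averaged over the arrays and divided by the median of the negative control spots (x axis, log scale), for 28 small RNAs (circles) and 11 host genes (squares); vertical lines join the values of both arrays. The dotted line marks 2 times the control spots and the dashed line 2-fold lower. Of the 4 small RNAs under the dashed line, 2 lie just right of the dotted line and 2 at much brighter signals.

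Host genes were found on both sides of 0. Of 12 host genes 11 were measured, with a median ratio of 0.04 (0.02 and 0.10 on the arrays). 4 were lower in ALDH+ cells on both arrays (36.4%, against 36.1% of all genes measured) and 6 were higher on both (54.5%, against 33.7%). None passed 2-fold. At 1.5-fold SNHG3 was lower and SNHG7 was higher, 1 gene each, which 4.59% and 1.51% of all genes measured were. With median centring SNHG3 was at -0.44, short of 1.5-fold, and SNHG6 at 0.62 and SNHG8 at 0.83 passed it beside SNHG7. SNHG4 was not measured.

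SNHG3 had ratios of -0.53 and -0.78, a mean of -0.66 ± 0.17, or 1.58-fold lower in ALDH+ cells. GAS5, a host of many box C/D snoRNAs and a transcript that accumulates when growth stops, was lower at -0.21 and -0.51. With median centring its mean was 0.03, of opposite sign. SNHG10 and SNHG9 were at -0.15 and -0.22, and at -0.23 and -0.08. The Cy3 signals of SNHG10 and SNHG11 were 1.92 and 1.85 times those of the control spots. Ratios near 0 were found for SNHG12, at -0.10 and 0.10, and for SNHG5, at 0.02 and 0.06.

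At the other end, SNHG8 had signals of 44285 in ALDH+ and 11302 in ALDH- cells on the first array and of 19656 and 24586 on the second. Its ratios were 0.42 and 0.48, a mean of 0.45 ± 0.04. SNHG6 was at 0.35 and 0.37, SNHG11 at 0.49 and 0.17, and SNHG1, the host of several box C/D snoRNAs, at 0.17 and 0.14. These were higher in ALDH+ cells on both arrays, by less than 1.5-fold.

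SNHG7 had the highest ratio of the host genes and also probes that disagreed. Both probes are shown, since the direction given for SNHG7 turns on them.
SNHG7, brighter probe, chr9:139619047-139619106, minus strand: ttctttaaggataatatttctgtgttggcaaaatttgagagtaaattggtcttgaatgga
SNHG7, dimmer probe, chr9:139619969-139620028, minus strand: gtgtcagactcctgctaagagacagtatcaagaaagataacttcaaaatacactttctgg
The brighter probe had ratios of 0.61 and 0.72, a mean of 0.66 ± 0.07, or 1.59-fold higher in ALDH+ cells, at signals between 407 and 960. The dimmer, 862 bases upstream of it on the transcribed strand, had ratios of -0.31 and -0.61 at signals between 157 and 227. Their mean was 0.10. The 2 probes were designed to different transcripts of SNHG7, and what sets them apart was not tested.

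**Figure D4:**
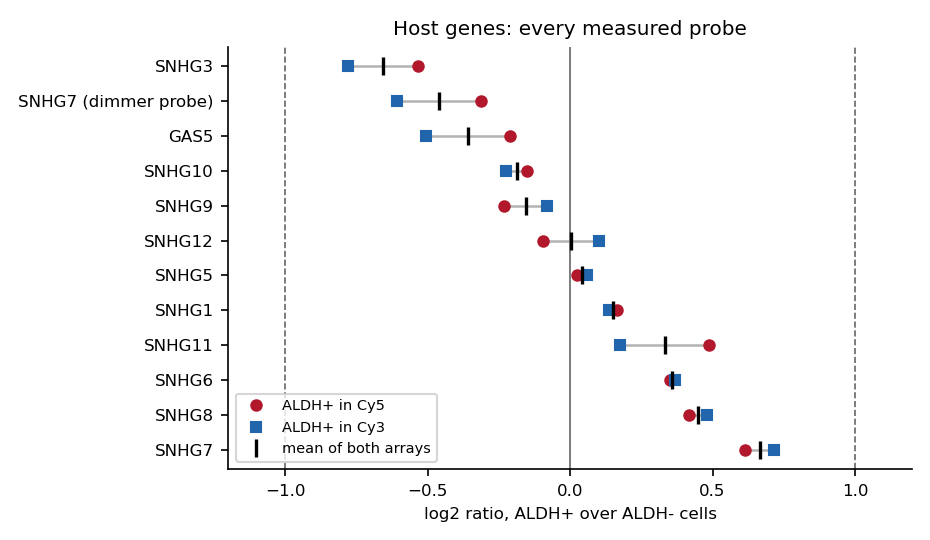
Log2 ratio of ALDH+ to ALDH- cells (x axis) for every measured probe of a host gene, with the array on which ALDH+ cells carried Cy5 as circles, the dye-exchanged array as squares and their mean as a bar; dashed lines mark 2-fold. SNHG3 and GAS5 lie left of 0 and SNHG6, SNHG8 and SNHG11 right of it, while the probes of SNHG7 lie on either side.

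Each small RNA was next set beside the gene whose RefSeq span contains it, a comparison of ratios and not of levels. A measured partner was found for 20 measured small RNAs, in 23 pairs with 21 genes. The small RNA had the lower ratio in 19 of the 23 pairs, in 15 of them on both arrays, and the median difference was -0.28. Small RNAs had mostly low ratios among all genes measured, so a lower ratio than other genes would also be common. No count against other genes was made, so the 19 pairs are not read as a relation to the containing gene. The pairs include the measured clone probes, those of SNORA33 and SNORA78 among them, and SCARNA16, SNORA73A and RNU105A each entered more than once. Only SNHG3 among the containing genes lay past 1.5-fold in either direction. SCARNA9 at -1.30 lay in CEP295 at -0.26, and SCARNA12 at -0.76 in PHB2 at 0.25. SNORA81 at -0.34 lay in EIF4A2 at 0.40, and SNORD15A at -0.28 in RPS3 at 0.39.

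SCARNA13 and its host SNHG10 are read by probes 313 bases apart on the same strand, with means of -0.75 and -0.19. RN7SL1 has its own promoter and lies opposite to RPS29, whose ratio was -0.01. The order was turned at SNHG3, where the host at -0.66 was lower than SNORA73A at -0.22 and RNU105A at -0.23, which were closer to RCC1, another gene over the same bases, at -0.12. SNORD17 and its host SNX5 had nearly the same ratio, -0.09 and -0.10. The hosts of SCARNA17 and SNORD116-19 were not measured.

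**Figure D5:**
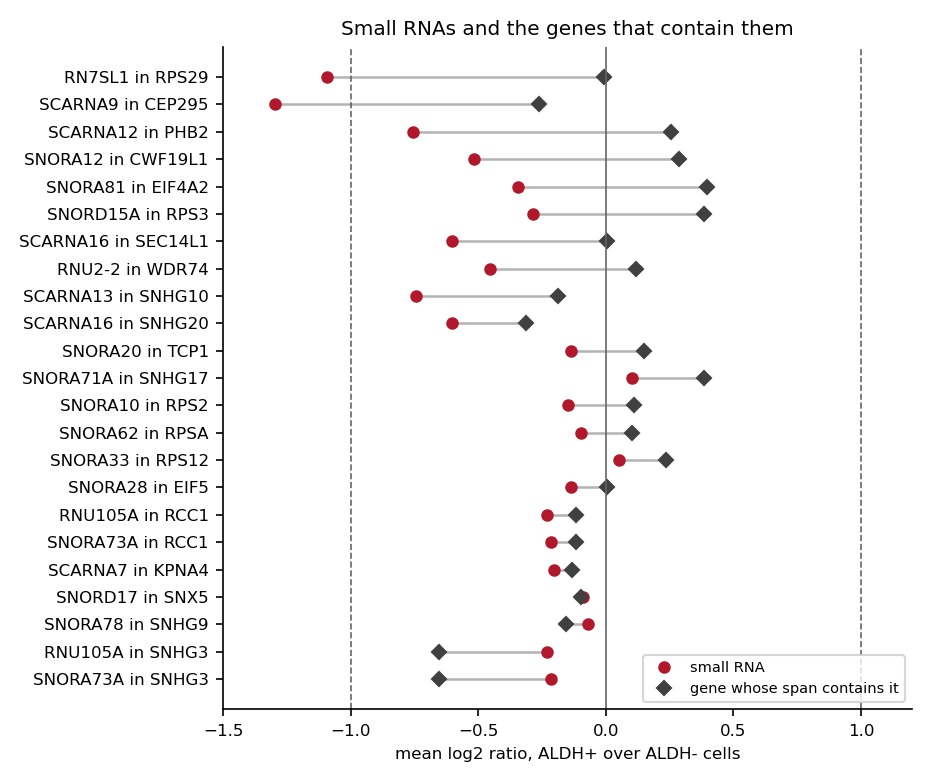
Mean log2 ratio of ALDH+ to ALDH- cells (x axis) of each measured small RNA (circles) and of the gene whose RefSeq span contains it (diamonds) in 23 pairs, ordered by the difference; dashed lines mark 2-fold. The circle lies left of the diamond in 19 pairs, and the clearest exceptions are SNORA73A and RNU105A in SNHG3.

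Genes of the proteins that bind, make, modify or degrade these RNAs were described from 14 lists. Together they hold 195 genes, of which 182 were measured, with a median of 0.00. 56 were lower in ALDH+ cells on both arrays and 66 higher on both, and 1 was lower and 0 were higher by more than 2-fold. These counts are to be read against 36.1%, 33.7%, 0.707% and 0.211% of all genes measured, in that order. The gene past 2-fold was SMG1, a kinase of nonsense-mediated decay, at -1.15 and -1.06. UPF2, of the same pathway, was at -0.77 and -0.63. SMG8 was the highest of that list, at 0.22 and 0.10. Over its 16 genes the median was -0.10, with 7 lower on both arrays and 3 higher.

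The 4 core proteins of box C/D particles had a median of -0.26, with NOP56 lowest at -0.50 and -0.43 and SNU13 highest at 0.12 and 0.01. Those of box H/ACA particles had a median of 0.06, from -0.29 for the pseudouridine synthase DKC1 to 0.19 for NOP10. Assembly factors ranged from -0.38 for TCOF1 to 0.25 for RUVBL2 over 10 genes, and Cajal body and telomerase genes from -0.54 for GEMIN5 to 0.19 for GEMIN7. No gene of these 4 lists passed 1.5-fold.

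Protein genes of the particles around RN7SL1 and RN7SK had mean ratios within 1.5-fold. Those of the signal recognition particle and its receptor had a median of -0.03 over 8 genes, from -0.16 for SRP54 to 0.27 for SRPRA. In the 7SK and P-TEFb list the median was -0.05 over 6 genes, from -0.16 for HEXIM1 to 0.08 for MEPCE. CCNT1, a cyclin of P-TEFb, had opposite ratios on the arrays, -0.75 and 0.57, and its mean of -0.09 has an SD of 0.93. Proteins of RNase P and RNase MRP ranged from -0.38 for POP1 to 0.34 for RPP25L, with a median of 0.10. In the spliceosomal list, 24 genes lay between -0.32 for PRPF3 and 0.32 for LSM4, and 8 genes of the minor spliceosome between -0.33 for PDCD7 and 0.37 for SNRNP25.

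Among the genes that transcribe or trim these RNAs, SNAPC4, a subunit of the complex that binds snRNA promoters, was the lowest at -0.76 and -0.80. SNAPC2, of the same complex, was the highest of its list at 0.48 and 0.33. INTS11, the endonuclease of Integrator that cuts snRNA ends, was at -0.44 and -0.75. For RNA polymerase III and its factors the median of 20 genes was -0.02, from -0.55 for the initiation factor BRF1 to 0.53 for MAF1, the repressor of that polymerase. The exosome and trimming list had a median of 0.015, from -0.40 for EXOSC6 to 0.34 for RBM7. Protein-coding snoRNA hosts other than ribosomal protein genes had a median of -0.06 over 22 genes, 10 lower and 10 higher on both arrays, from HSPA9 at -0.64 and -0.53 to EEF2 at 0.83 and 0.65.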

How the data were processed

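For each array the authors deposited the intensity and local background of every spot, without normalization, as read by Feature Extraction (10.7.3.1 in the file headers; the submitters' processing notes give 8.5.1.1), and a joined table of that software's log10 ratio. Per the file headers coordinates are hg19. Here mean intensities were background-corrected (normexp, offset 50) and normalized by loess in R 4.3.3 with limma 3.58.1; Python 3.11.15, numpy 2.4.6 and pandas 2.3.3 did the rest. Control and outlier spots were left out, spots of a probe averaged, and ratios turned to ALDH+ over ALDH-. Genes took the value of the brightest probe that was well above background (over 50% of its spots) for one population or both, on each array. Background correction and loess were tested on simulated arrays with the same background in both dyes, unlike the control spots of these arrays. The filter, the probe rule and the matching to genes were not simulated. Members were matched to RefSeq (GRCh38.p14) symbols for all 87 probes, through accession, symbol or synonym, and RefSeq spans named the containing genes. All members were named. Of each partner list, genes past 2-fold and the highest and lowest were named; UPF2, INTS11, CCNT1 and the remaining containing genes were named after their values were seen. The members and lists were chosen with earlier results of these data known. Alternatives changed the background, normalization, filter, probe rule, arrays and threshold. The 4 signal columns of the joined table were not used. The number of arrays limits the precision. Some label markers and the sequences of other member probes are not reported here.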

Additional observations from a re-analysis of the deposited data

How the results depend on the processing

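The direction of the small RNA median held under each alternative, and its size did not. It was -0.26 in the setting reported, -0.24 without background correction, -0.29 with the smaller offset, -0.40 with the log ratio of the scanner software (alone or in the joined table), -0.20 with median centring, -0.076 with no filter on dim probes and -0.24 with probes above background in both populations. With 1 array left out it was -0.34 or -0.33. The 4 small RNAs past 2-fold lower became 7 with that log ratio from either source (SCARNA12, SCARNA16 and SNORD116-19 joined them), 3 with the mean over probes, 2 with median centring and 9 at 1.5-fold. The share of all genes past 2-fold lower changed too. It was 0.707% in the setting reported, 2.01% with the software log ratio, 0.641% with the mean over probes and 0.328% with median centring. At 1.5-fold 4.59% of all genes were lower. At 1.5-fold 1 host gene was lower and 1 higher. The host gene median was 0.38 with median centring, where that of all genes was 0.07 (0.56 on the first array and -0.43 on the second), and with 1 array left out it was 0.10 or 0.024. SCARNA9 and SCARNA17 stayed past 2-fold in 13 of 13 alternatives, RN7SL1 in 12 and SNORD3B-1 in 11. These are not 13 separate checks. For both scaRNAs, kept outlier spots, both filter changes and the mean over probes returned the reported value, and the joined table repeated the software log ratio. Of 504 values of single members under these alternatives, 79 moved by more than the technical SD and 10 had the other sign, none of a member past 2-fold. What caused these changes was not tested. Leaving out 1 of 2 arrays cannot move a mean by more than that SD, and the joined table repeats the software log ratio. The 504 values are therefore not separate checks, and the 79 are no measure of stability. No paired analysis was possible because each population gave 1 RNA sample. Signals near those of the negative control spots limit what can be said of 10 small RNAs and of SNHG10 and SNHG11. The same holds for SCARNA9, SCARNA12 and SCARNA17 in ALDH+ cells on the second array, where those cells carried Cy3.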

Other observations

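Some noncoding host genes are on the array under older names and were not selected by name. C17orf86, now SNHG20 and the host of SCARNA16, had ratios of -0.34 and -0.29. LOC388796, now SNHG17 and the host of SNORA71A, was at 0.31 and 0.45, NCRNA00188, now SNHG29, at 0.31 and 0.38, and C7orf40, now SNHG15, at 0.23 and 0.31. These 4 had the same sign on both arrays, and none passed 1.5-fold. Of all genes measured, 36.1% were lower and 33.7% higher on both arrays, so a shared sign is common.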
